A study of Arabidopsis thaliana with 12 samples.

Results

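In whole Arabidopsis roots moved to sulfur-deficient medium, 84 of 22746 probe sets had a higher signal after 3 h, were no longer clearly above their starting signal at 24 h and were close to it at 72 h. They were chosen by a rule on the measured values. With L the log2 of the signal plus 16, averaged over the arrays of a group, a probe set had to have a mean signal of at least 100 in some group and an L at least 0.8 higher at 3 h than at 0 h. Its L at 24 h had to lie less than 0.4 above that at 0 h, its L at 72 h within 0.4 of it on either side, and both 3 h arrays above both 0 h arrays. The values at 0, 3, 24 and 72 h therefore describe the choice and are given without a test. The 12 h and 48 h arrays entered it only through the floor of 100 in some group. Through the 12 h mean alone, 252515_at (81.9 at 3 h, 109 at 12 h) and 262911_s_at (82.1 and 100.6) met that floor. Of the 86 probe sets that met these conditions, APS3 and AT4G37290 were left out by name. AT2G23270 and AT5G39670, also left out by name, were higher by only 0.35 and 0.28 at 3 h and did not meet them.

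The seedlings were of the Columbia ecotype and had grown for 5 days on standard medium before the move. The 0 h group went to fresh standard medium, and the other groups spent 3, 12, 24, 48 or 72 h on sulfur-deficient medium. Whole-root RNA of each of the 6 groups was hybridised to 2 one-colour Affymetrix arrays, 12 in all. Standard medium was sampled only at 0 h, so sulfur deficiency, the transfer itself, seedling age and hour of harvest cannot be told apart. Whether replicates were separate cultures is not stated in the labels, and the p-values then cover only the spread of these samples, which may be technical.

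The platform annotation given with the data paired 40 of the 84 probe sets with 1 gene and 3 with several genes, and it left 41 unlisted. Only the 40 are named by gene, and the others by probe set. No gene had a second probe set on the array that could be compared.

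A rise that passes within hours is a common shape of plant transcript responses, since many genes of signalling, detoxification and protein folding are switched on quickly by handling, a new medium or a changed nutrient and are then switched off again. Mild oxidants and electrophiles act in this way through TGA transcription factors, which switch on glutathione transferases, glucosyltransferases and glutaredoxins. Misfolded protein acts through heat shock factors, which switch on chaperones and the co-chaperones that serve HSP70 and HSP90. Roots short of sulfur also reduce the use of sulfur in glucosinolates and glutathione, a change that in general lasts as long as the shortage.

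The arrays had the same scale, with trimmed mean signals of 250.02 to 250.03, and the arrays of a group correlated at 0.973 to 0.986 across the probe sets tested. The actin control, read at its 3' end over its 5' end, had ratios of 3.12 to 3.44 at 3 h and 2.38 to 3.27 at the other times. For GAPDH the ratio was 0.834 to 0.953 at 3 h and 0.879 to 1.24 elsewhere, and for ubiquitin 1.04 to 1.20 and 0.840 to 1.19. Of 6 root hair markers only EXPA7 and EXPA18 were measured, and both fell at 3 h. Their summed signal was 1244 and 1553 on the 0 h arrays, 723 and 368 on the 3 h arrays and 840 and 898 on the 12 h arrays. Of 7 green tissue markers RCA and LHCB4.1 were measured. Their sum was 596 and 612 at 0 h, 421 and 483 at 3 h, 331 and 333 at 12 h and 515 and 708 at 24 h. Of 2 cortex markers 1 was measured, with signals of 218 and 115 at 0 h, 169 and 198 at 3 h and 163 and 190 at 12 h. Of 5 meristem markers 1 was measured, with 133 and 85.9, 123 and 113, and 166 and 126 at these times. None of these green tissue, cortex and meristem markers differed at 3 h (limma, adjusted p under 0.05). The part of RNA quality and of cell types in the results below was not tested, and in whole roots fewer cells of a type cannot be told apart from less RNA per cell. The defining markers of endodermis, stele and columella were not measured under a named probe set.

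At 3 h the 84 probe sets stood 0.80 to 2.76 above 0 h on the log2 scale, with a median of 1.06. The difference was at least 1 in 45 of them and at least 2 in 3. Mean signals at 0 h ran from 22.7 to 1386 with a median of 129.9, and 35 of them were below 100. At 3 h the mean signals ran from 81.9 to 3097 with a median of 333.7. For comparison, 12.1% of the 14678 probe sets tested differed between 3 h and 0 h by limma at an adjusted p under 0.05, with 5.49% higher and 6.66% lower, a contrast that the choice itself used. The 3 h arrays did not differ from each other in a fixed direction. Replicate 2 was the higher for 45 of the 84, and for 53.2% of all probe sets tested. The median gap between the arrays was 0.20 on the log2 scale, against 0.22 over all probe sets tested. At 0 h that gap was 0.23, against 0.22. The choice used both pairs and asked that they not overlap, so these gaps are no independent check of the replicates.

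**Figure D1:**
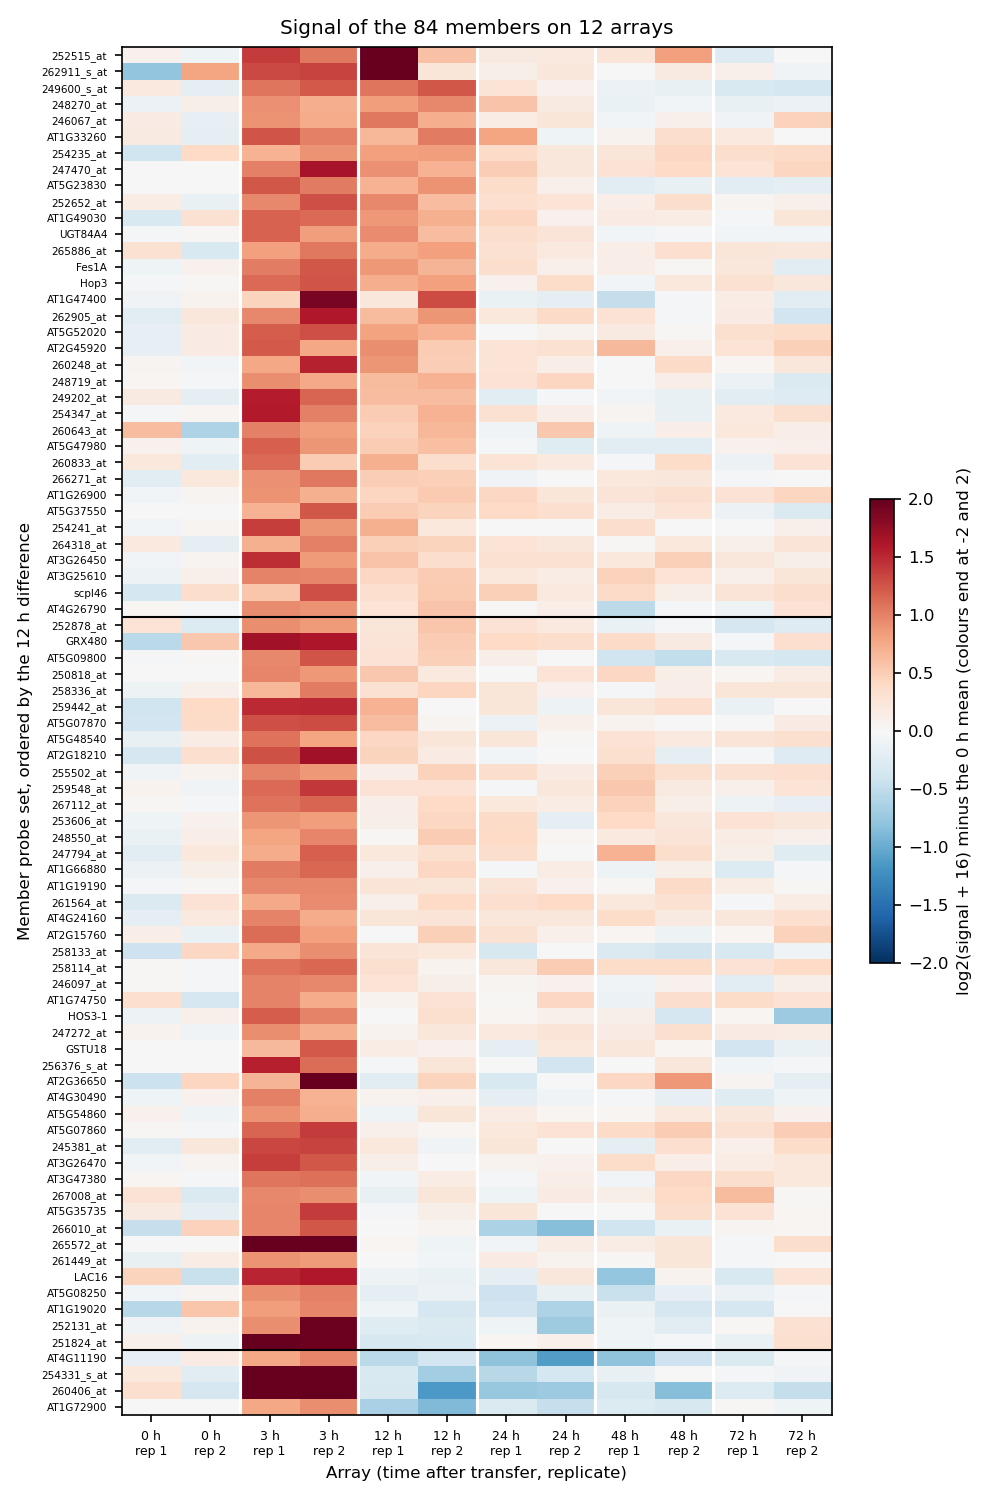
Log2(signal + 16) of the 84 probe sets on the 12 arrays (columns, time and replicate), as the difference from the 0 h mean, ordered by the 12 h difference. Lines part the 35 probe sets 0.4 or more above 0 h at 12 h, the 45 within 0.4 of it and the 4 at -0.4 or less, and both 3 h columns are red throughout.

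The 12 h arrays show how long the higher signal lasted. At 12 h, 35 of the 84 probe sets (41.7%) were still at least 0.4 above 0 h. Another 45 were within 0.4 of it and 4 were at least 0.4 below it. Over all 22746 probe sets, 2106 (9.26%) were at least 0.4 above 0 h at 12 h, 17498 within 0.4 and 3142 at least 0.4 below. The 35 include 252515_at and 262911_s_at, which met the signal floor only through their 12 h means. The highest L lay at 3 h for 79 and at 12 h for 5, which were 252515_at, 249600_s_at, 246067_at, 248270_at and 254235_at. By mean signal 262911_s_at was also higher at 12 h (100.6) than at 3 h (82.1), with 12 h arrays of 171 and 30.2. A name such as "3 h only" therefore does not describe the 35, and asking for a return within 0.4 at 12 h and 48 h as well leaves 41 of the 84. In the 45 that were back, the median difference from 0 h was 0.98 at 3 h, 0.19 at 12 h, 0.09 at 24 h, 0.13 at 48 h and 0.09 at 72 h. In the 35 that were not, it was 1.13, 0.75, 0.23, 0.13 and 0.09 at the same times. The median share of the 3 h difference that was left at 12 h was 64.5% in the 35 and 19.9% in the 45.

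**Figure D2:**
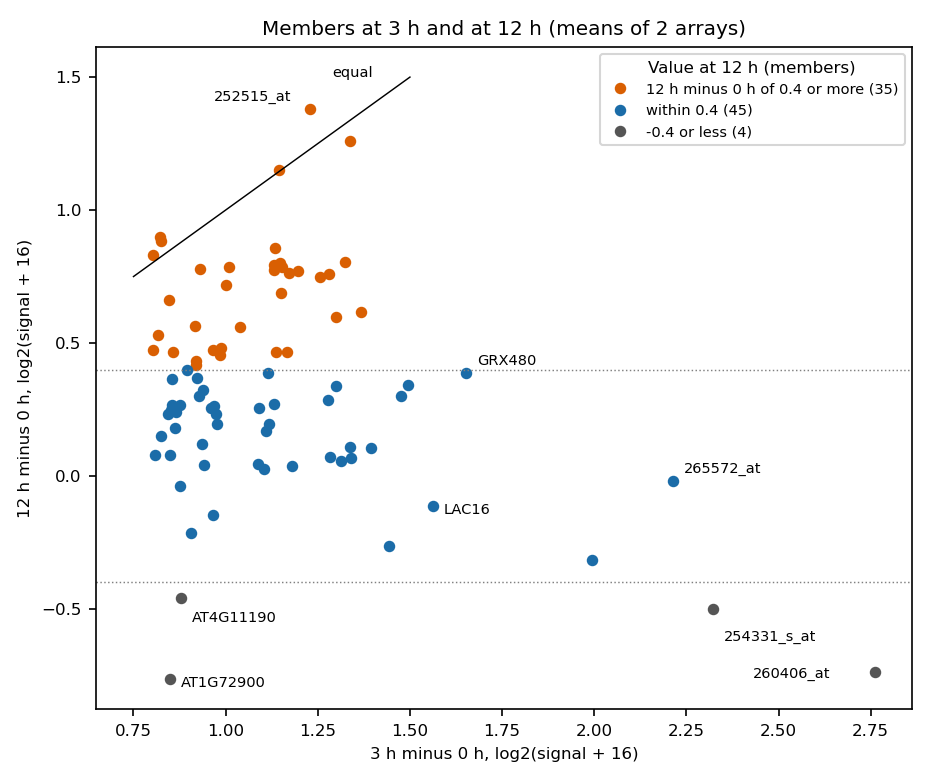
Difference from 0 h at 3 h (x axis) and at 12 h (y axis), both in log2(signal + 16), for each of the 84 probe sets, with dotted lines at 0.4 and -0.4 and a solid line where both are equal. GRX480 and LAC16 are among the 45 back within 0.4, and 5 points lie above the solid line.

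Among redox and detoxification genes, GRX480 encodes a CC-type glutaredoxin that binds TGA transcription factors. Its signal was 66.4 and 159 at 0 h, 369.5 and 353 at 3 h, 128 and 155 at 12 h, 142 and 137 at 24 h, 141 and 121 at 48 h and 103 and 136 at 72 h. Both 3 h arrays were more than double every other array, and the 12 h and 48 h arrays lay within the span of the 0 h pair. The 3 h difference was 1.65 on the log2 scale, the largest of the probe sets paired with 1 gene, and 0.39 was left at 12 h. GSTU18, a tau-class glutathione transferase, had signals of 53.4 and 54.6 at 0 h, 93.6 and 148 at 3 h and 62 and 58.1 at 12 h. Its 3 h difference was 0.94, and its 3 h arrays were further apart than those of GRX480. AT5G08250, a cytochrome P450 of the CYP86B class, had signals of 98.4 and 106 at 0 h, against 209 and 222 at 3 h. At 12 h it stood at 89 and 92.6, below both 0 h arrays.

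A list of oxidative stress and detoxification genes had 6 measured entries, 1 of them GRX480, whose 3 h value is not tested. Of the other 5, 4 rose at 3 h (limma, adjusted p under 0.05) and none fell, where 5.49% of all probe sets tested were higher and 6.66% lower. The 4 were GSTU25 by 1.52, UGT73B5 by 1.47, GSTU22 by 1.45 and UGT73B4 by 1.39 on the log2 scale, while GSTU26 was at -0.15 and did not pass. None of the 5 was among the 84, since GSTU26 was not higher at 3 h and the 4 kept part of the difference. At 72 h GSTU25 stood 1.31 above 0 h, GSTU22 0.84, UGT73B5 0.62 and UGT73B4 0.54, where GRX480 stood at 0.16. These genes belong to families of near-identical copies, and how far their probe sets share signal was not tested. Matched by symbol, the 31 lists held 71 measured genes of 744 entries, of which GRX480 was the only one among the 84. AT1G47400, described below, is an entry of the iron list under a name that the gene table does not hold, and the counts leave it out.

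Protein folding was represented by co-chaperones. Hop3, which passes client proteins from HSP70 to HSP90, had signals of 85.3 and 89.2 at 0 h, 211 and 230.0 at 3 h, 154 and 167 at 12 h, 93.1 and 118 at 24 h, 83.2 and 103 at 48 h and 112 and 105 at 72 h. Fes1A, an armadillo-repeat partner of HSP70, had signals of 226 and 257 at 0 h, 505 and 591 at 3 h, 454 and 395 at 12 h, 312 and 259 at 24 h, 265 and 245 at 48 h and 284 and 204 at 72 h. In both genes the 12 h arrays lay between those of 3 h and those of 0 h, with no overlap. At 12 h both were still higher than at 0 h, Hop3 by 0.77 ± 0.16 (SE; limma, adjusted p = 0.0093) and Fes1A by 0.78 ± 0.17 (adjusted p = 0.0122). The call of Hop3 was lost without 12 h replicate 2 (0.72, adjusted p = 0.0801), and that of Fes1A without 0 h replicate 1 (0.69, adjusted p = 0.0639) or 12 h replicate 1 (0.68, adjusted p = 0.113). The difference from 12 h to 48 h was -0.70 for both, with adjusted p of 0.057 for Hop3 and 0.0732 for Fes1A. Of the list of heat shock and protein folding genes only AT5G48570, a FKBP-type peptidyl-prolyl isomerase, was measured. It rose by 1.28 at 3 h (limma, adjusted p = 0.000251) and was not among the 84, with 0.44 left at 72 h.

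Some of the 84 encode enzymes of secondary metabolism and conjugation. AT5G47980 is a BAHD acyltransferase of the thalianol gene cluster, which makes root triterpenes. Its signals were 995 and 890.0 at 0 h, 2168 and 1755 at 3 h, 1349.6 and 1443 at 12 h, 927 and 794 at 24 h, 810.3 and 802 at 48 h and 1004 and 1013 at 72 h. The 12 h arrays were above all arrays other than those of 3 h. UGT84A4, which joins glucose to hydroxycinnamic acids, had signals of 399.7 and 411 at 0 h, 937 and 739 at 3 h, 799.7 and 629.9 at 12 h, 525 and 489 at 24 h, 388 and 396 at 48 h and 388 and 388 at 72 h. The 3 h and 12 h pairs of UGT84A4 overlapped, and both lay above every array of the other times.

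Another BAHD pair, AT5G07860 and AT5G07870, are next to each other in the gene table and showed a sharper course. AT5G07860 had signals of 412 and 402 at 0 h, 928 and 1103 at 3 h, 436 and 420.1 at 12 h, 476 and 498 at 24 h, 536 and 584 at 48 h and 504 and 579.8 at 72 h. AT5G07870 had signals of 264 and 460.0 at 0 h, 875 and 891 at 3 h, 547 and 362 at 12 h, 320.5 and 377 at 24 h, 365 and 349 at 48 h and 346 and 393 at 72 h. On the log2 scale their 3 h differences were 1.28 and 1.30. At 12 h the first was at 0.07 and the second at 0.34, with a wide gap between its 12 h arrays. At 48 h AT5G07860 was again 0.45 above 0 h, which did not pass the test, while AT5G07870 was at 0.03. Neighbours in a family can share probe sequence, which was not examined here.

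A further pair, AT3G26450 and AT3G26470, lies with 1 gene, AT3G26460, between them. AT3G26450 encodes a protein of the Bet v 1 and polyketide cyclase fold, and AT3G26470 one with an RPW8 domain, which is named after mildew resistance proteins. AT3G26470 had signals of 592 and 637 at 0 h, 1631 and 1472 at 3 h, 665 and 613 at 12 h, 643 and 653 at 24 h, 799.7 and 674 at 48 h and 683 and 715 at 72 h. AT3G26450 had signals of 560.1 and 609 at 0 h, 1652 and 1072 at 3 h, 877 and 754 at 12 h, 728 and 724 at 24 h, 682 and 818 at 48 h and 689 and 632 at 72 h. The former was back at the 0 h level by 12 h, while the latter was 0.47 above it. AT3G26460 between them was higher by 1.13 at 3 h and by 1.09 at 12 h, and was not among the 84 because it stood at -0.42 at 72 h.

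**Figure D3:**
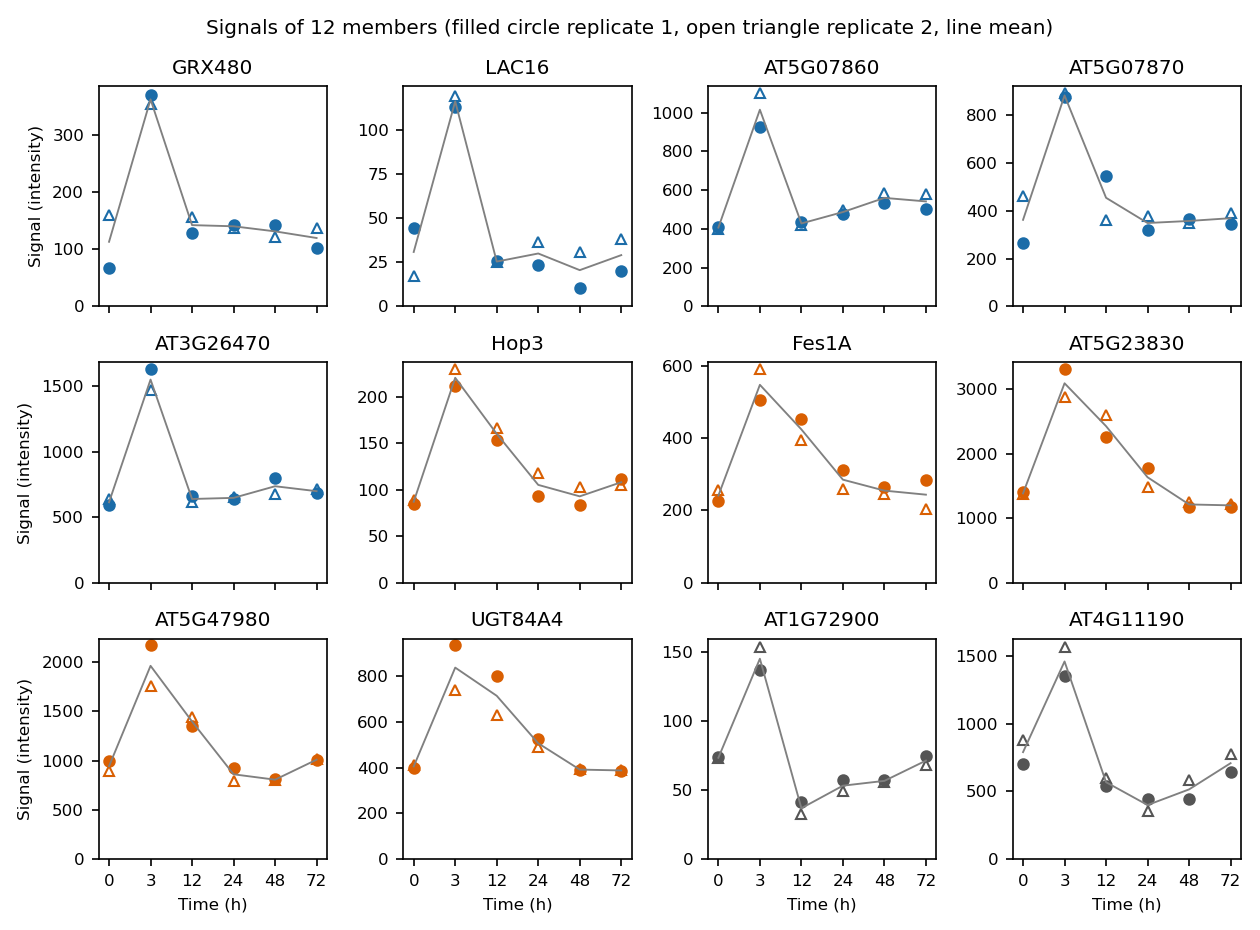
Signal (linear intensity, y axis from 0) of 12 of the 84 probe sets at each time (x axis in h, evenly spaced), with a filled circle for replicate 1, an open triangle for replicate 2 and a line through the means. Colours give the 12 h value as in the plot of 3 h against 12 h, and Hop3, Fes1A, AT5G23830, AT5G47980 and UGT84A4 are still above their 0 h arrays at 12 h.

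Several genes act on lipids. AT5G23830, which has an MD-2-related lipid-recognition domain, was the brightest of the 84 at 3 h. Its signals were 1401 and 1372 at 0 h, 3315 and 2879 at 3 h, 2256 and 2606 at 12 h, 1784 and 1491 at 24 h, 1178 and 1253 at 48 h and 1181 and 1222 at 72 h. Its arrays kept the order of the times from 3 h to 48 h without overlap, and by 48 h they were below the 0 h arrays. HOS3-1, an ELO-type fatty acid elongase, had signals of 71.6 and 84.3 at 0 h, 202 and 171 at 3 h and 78.3 and 102 at 12 h. AT4G24160, an acyltransferase of lysophosphatidic acid, had signals of 1017 and 1337 at 0 h, 2335 and 1958 at 3 h and 1375 and 1391 at 12 h. The 12 h arrays of HOS3-1 overlapped those of 0 h, and those of AT4G24160 lay just above them. AT3G25610, a P4-type ATPase that flips lipids between membrane leaflets, had signals of 329 and 377 at 0 h, 717 and 707 at 3 h and 472 and 505 at 12 h. AT4G26790, a GDSL-type lipase, had signals of 90.3 and 85.3 at 0 h, 183 and 177 at 3 h and 109 and 137 at 12 h. Both were among the 35 that remained at least 0.4 higher at 12 h, by 0.45 and 0.42, without passing the test.

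A few encode proteins of the cell wall or secreted proteins. LAC16, a laccase of the class that oxidises lignin precursors, had signals of 44.6 and 16.9 at 0 h, 113 and 119 at 3 h, 25.8 and 24.9 at 12 h, 23.3 and 36.5 at 24 h, 10.2 and 30.8 at 48 h and 20.1 and 37.8 at 72 h. Only its 3 h arrays were clear of the dim range, so the difference of 1.56 is uncertain in size. AT3G47380, a pectin methylesterase inhibitor, had signals of 75.9 and 70.4 at 0 h, 171 and 176 at 3 h and 69.8 and 82.7 at 12 h. AT5G48540, a secreted protein with DUF26 domains, had signals of 267 and 328 at 0 h, 648 and 523 at 3 h and 399 and 351 at 12 h. The 12 h arrays of AT3G47380 spanned the 0 h pair, while those of AT5G48540 were above it by a difference of 0.32. The serine carboxypeptidase-like gene scpl46 had signals of 38 and 72.1 at 0 h, 85.3 and 152 at 3 h and 71.1 and 83.4 at 12 h, where it was still 0.43 higher.

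AT4G11190, a dirigent protein of the class that guides the coupling of lignin-type units, went from higher to lower than its start. Its signals were 699 and 881 at 0 h, 1352 and 1567 at 3 h, 536 and 599 at 12 h, 444 and 355 at 24 h, 444 and 586 at 48 h and 643 and 774 at 72 h. All arrays at 12, 24 and 48 h lay below both 0 h arrays, and those of 72 h overlapped them. The differences from 0 h were 0.88 at 3 h, -0.46 at 12 h, -0.96 at 24 h and -0.61 at 48 h, of which those at 12 h and 48 h did not pass the test. The rule set no lower limit at 24 h, and 6 of the 84 were at -0.4 or less there, among them AT4G11190 and AT1G19020 at -0.49.

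Regulators and receptors made up another part. AT5G52020, an AP2/ERF transcription factor of the DREB class, had signals of 68.2 and 89.6 at 0 h, 203 and 215 at 3 h, 148 and 137 at 12 h, 78.3 and 83.5 at 24 h, 91 and 80 at 48 h and 102 and 105 at 72 h. It was higher at 12 h than at 0 h by 0.75 ± 0.16 (SE; limma, adjusted p = 0.011), a call lost without 0 h replicate 1 or either 12 h array. AT1G33260 and AT1G66880, both protein kinases, differed at 12 h. The former had signals of 59.5 and 43.4 at 0 h, 144 and 119 at 3 h and 90.3 and 122 at 12 h, and the latter 131 and 158, 311 and 338, and 155 and 197. The first thus kept most of its higher signal, and the 12 h arrays of the second overlapped those of 0 h, though the difference between the genes was not tested.

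AT5G09800 and AT2G45920 encode U-box proteins, a class of ubiquitin ligase. AT5G09800 had signals of 65.4 and 67.3 at 0 h, 145 and 182 at 3 h, 85.1 and 98.7 at 12 h, 74.6 and 65.5 at 24 h, 46.3 and 42.6 at 48 h and 50.6 and 48.8 at 72 h. Its signals were above 0 h at 12 h and below it at 48 h, with no overlap. AT2G45920 had signals of 117 and 149.8 at 0 h, 332 and 238 at 3 h, 267 and 194 at 12 h and 216 and 144 at 48 h.

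AT1G72900, which encodes a TIR-domain protein of the kind found in immune receptors, was the only one of the 84 that fell between 0 h and 12 h by the test. Its signals were 73.9 and 73.1 at 0 h, 137 and 154 at 3 h, 41.3 and 32.5 at 12 h, 57.2 and 49.3 at 24 h, 57.7 and 55.8 at 48 h and 74.8 and 68.1 at 72 h. The 12 h arrays were the lowest of the course, and the 72 h arrays overlapped those of 0 h. The 12 h difference was -0.76 ± 0.18 (SE; limma, adjusted p = 0.0177), and the call was lost without either 0 h array or without 12 h replicate 2 (-0.64, adjusted p = 0.133). Of the 8 measured genes in the list of immune and WRKY genes, only WRKY6 rose at 3 h, by 0.57 (limma, adjusted p = 0.0362), and none of the 3 measured genes of the touch and calcium list passed.

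The remaining named genes are of mixed function. AT1G47400 encodes an iron deficiency peptide, IMA1, which in Arabidopsis promotes iron uptake. Its signals were 49 and 56.1 at 0 h, 77 and 240.0 at 3 h, 64.4 and 152 at 12 h, 46.3 and 44.3 at 24 h, 33.5 and 50.5 at 48 h and 60.1 and 42.4 at 72 h. In both the 3 h and the 12 h pair, replicate 2 was more than double replicate 1, so the size of its 3 h difference of 1.17 rests mainly on 1 array. Of the 3 other genes of the iron list that were measured, PYE rose at 3 h by 0.68 (limma, adjusted p = 0.0202) while BHLH101 and AT3G13610 did not pass. AT1G49030, a PLAC8-family protein, had signals of 32.7 and 58.7 at 0 h, 121 and 116 at 3 h and 94 and 82.3 at 12 h. Its 12 h difference of 0.79 ± 0.23 (SE) passed narrowly (limma, adjusted p = 0.0475) and failed in most alternatives, among them the loss of either 12 h array.

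AT5G35735, an auxin-responsive family protein with a cytochrome b561 domain, had signals of 363 and 281 at 0 h, 641 and 863 at 3 h and 309.9 and 347 at 12 h. AT4G30490, an AFG1-like ATPase, had signals of 551 and 623 at 0 h, 1193 and 956 at 3 h and 614 and 627 at 12 h. AT5G54860, of a folate and biopterin transporter family, had signals of 457 and 405 at 0 h, 816 and 719 at 3 h and 405 and 512 at 12 h. All 3 were within 0.4 of 0 h at 12 h, and the auxin list showed no measured gene that rose at 3 h and 2 of 3 that fell. AT1G74750 and AT1G26900, pentatricopeptide repeat proteins of the kind that bind organelle RNA, were higher at 3 h by 0.86 and 0.80. AT1G19190, a carboxylesterase, was higher by 0.96, with signals of 47.3 and 49.1 before and 108 and 109 after 3 h. AT2G18210, AT2G36650, AT2G15760, AT5G37550 and AT1G19020 are given without a role. AT2G18210 had signals of 167 and 277 at 0 h, then 544 and 724 at 3 h, and AT1G19020 had 527 and 1152 at 0 h, then 1407 and 1551 at 3 h. The wide 0 h pair of AT1G19020 leaves its 3 h difference of 0.91 less certain than those of its neighbours in rank. AT2G36650 had signals of 27.6 and 62.5 at 0 h, 78.2 and 235 at 3 h and 61.7 and 91 at 48 h.

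The largest 3 h differences belonged to probe sets the annotation does not list. The signal of 260406_at was 31.7 and 13.7 at 0 h, 248 and 231 at 3 h and between 0.943 and 15 on the later arrays, so that its difference of 2.76 starts from a dim level. That of 254331_s_at was 231 and 168 at 0 h, 1007 and 1096 at 3 h, 157 and 115 at 12 h, 129 and 151 at 24 h, 177 and 199 at 48 h and 191 and 187 at 72 h. The signal of 265572_at was 98.8 and 96.4 at 0 h, 496 and 525 at 3 h and 101 and 91.4 at 12 h, and that of 251824_at was 55.6 and 46.6, 256 and 246, and 37.6 and 37.9 at the same times. In all of these 4 the 3 h arrays agreed closely and the mean 12 h signal was below that of 0 h. The 12 h difference of 265572_at was only -0.02 on the log2 scale, and none of the 4 passed the test at 12 h.

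The comparison of 48 h with 12 h is between groups that entered the choice only through the signal floor. Its estimate of the spread came from all 12 arrays, those of the choice among them. At an adjusted p under 0.05 by limma, 1.33% of the probe sets tested differed, with 0.606% lower at 48 h and 0.722% higher. Of the 84, 7 (8.33%) were lower and none was higher. Their median difference was -0.21, against 0.03 over all probe sets tested, and 26 of the 84 were above 0, against 55.2% of all. Both 48 h arrays lay below both 12 h arrays for 35 of the 84 (41.7%), against 18.7% of all probe sets tested. They lay above both for 10 (11.9%), against 25.3%. The probe sets 252515_at and 262911_s_at, which met that floor only through their 12 h means, are counted in the 84, the latter among those below. The count of 7 dropped to 2 and 4 when replicate 1 or 2 of 12 h was left out, and to 2 and 3 when replicate 1 or 2 of 48 h was. It was 12 when the compared groups were fitted alone.

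The 7 that fell from 12 h to 48 h included AT5G23830, at -0.99 ± 0.14 (SE; limma, adjusted p = 0.00328), and 249600_s_at, at -1.28 ± 0.16 (adjusted p = 0.00243), and these calls held in all 20 alternatives. The difference was -0.78 ± 0.14 for AT5G47980 (adjusted p = 0.0135), -0.83 ± 0.15 for UGT84A4 (adjusted p = 0.015) and -0.83 ± 0.18 for AT5G09800 (adjusted p = 0.0373). Leaving out any 1 of the 12 h and 48 h arrays ended the call of AT5G47980. That of UGT84A4 was lost without 12 h replicate 1 or either 48 h array, and that of AT5G09800 without any 1 array of 12, 24, 48 or 72 h. The unlisted 248270_at and 246067_at were at -0.99 ± 0.16 (adjusted p = 0.00758) and -0.86 ± 0.19 (adjusted p = 0.0432), and the first was lost without either 12 h array or 48 h replicate 1, the second without any 1 array of 12, 24 or 48 h. The probe set 249600_s_at, paired with several genes, had signals of 196 and 146 at 0 h, 372 and 417 at 3 h, 371 and 421 at 12 h, 207 and 179.6 at 24 h and 154 and 152 at 48 h. Its 12 h arrays were close to those of 3 h and were clear of all others.

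**Figure D4:**
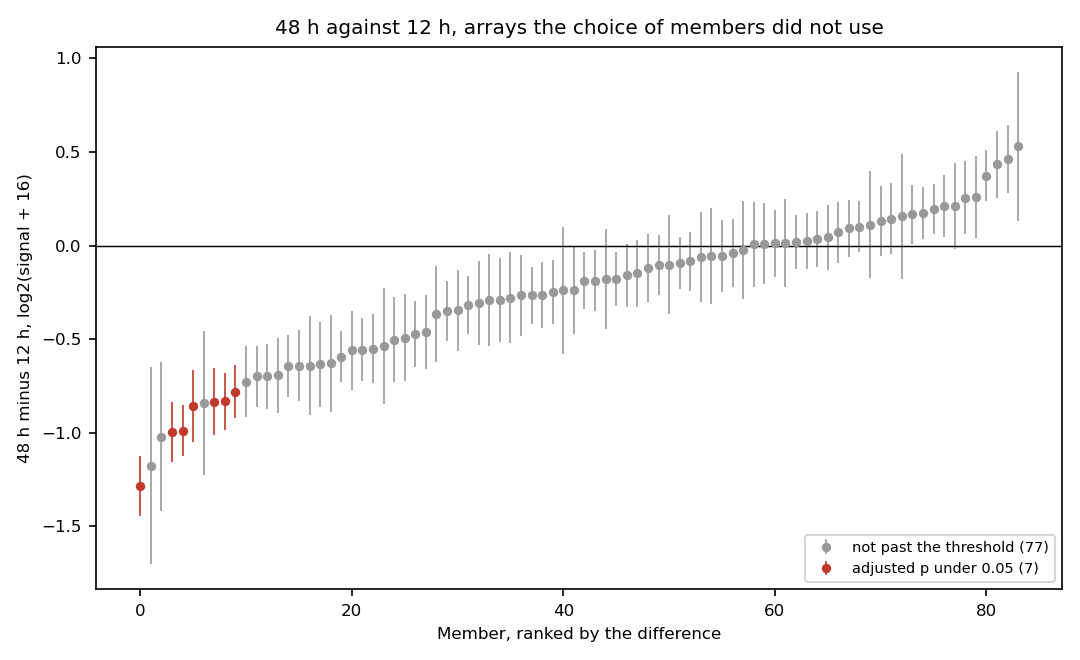
Difference between 48 h and 12 h in log2(signal + 16), with bars of 1 SE from limma, for the 84 probe sets ranked by it (x axis). The 7 past an adjusted p of 0.05, in red, all lie below 0.

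The comparison of 12 h with 0 h asked which of the 84 were still different. It shares the 0 h arrays with the choice, so a low 0 h value enters both. The 12 h arrays also entered the signal floor, which 252515_at and 262911_s_at met only through them. Over all probe sets tested 7.93% differed, 3.39% being higher at 12 h and 4.54% lower. Of the 84, 16 were higher and AT1G72900 was lower, which is 20.2% together, and the median difference was 0.33 against -0.02 over all. Both 12 h arrays were above both 0 h arrays for 48 of the 84 (57.1%), against 22.1% of all probe sets tested. The count of 17 became 6 or 9 when replicate 1 or 2 of 12 h was left out and 10 when the compared groups were fitted alone.

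AT5G23830 rose between 0 h and 12 h by 0.80 ± 0.14 (SE; limma, adjusted p = 0.0021), UGT84A4 by 0.78 ± 0.15 (adjusted p = 0.00545) and AT5G47980 by 0.56 ± 0.14 (adjusted p = 0.0236). The call of UGT84A4 was lost without 12 h replicate 1 (0.62, adjusted p = 0.0757), and that of AT5G47980 without 0 h replicate 2 or either 12 h array. Hop3, Fes1A, AT5G52020 and AT1G49030 are the other genes of the 16, and the remaining 9 are probe sets with no single gene. Among these, 249600_s_at was higher by 1.15 (adjusted p = 0.000535) and 248270_at by 0.90 (adjusted p = 0.00271). The largest, 252515_at at 1.38 (adjusted p = 0.041), had signals of 172 and 46.1 on the 12 h arrays and 27.9 and 23.2 on those of 0 h, and its difference was 0.58 without 12 h replicate 1. Its call was also lost without any 1 array of 0, 24 or 72 h.

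By 48 h none of the 84 passed against 0 h by limma, where 3.74% of the probe sets tested did (1.98% higher, 1.76% lower). Without 0 h replicate 1, 2 passed. This comparison also shares the 0 h arrays with the choice. Their median difference was 0.12, against 0.01 over all. Both 48 h arrays were above both 0 h arrays for 21 of the 84 (25%), near the 22.4% of all probe sets tested. At least 0.4 above 0 h at 48 h were AT2G36650 at 0.64, 252515_at at 0.54, 247794_at at 0.53 and AT5G07860 at 0.45. At least 0.4 below were AT4G11190 at -0.61, 260406_at at -0.58 and AT5G09800 at -0.45. Over all 22746 probe sets, 1858 were at least 0.4 above 0 h at 48 h and 2403 at least 0.4 below.

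The 84 were a minority of the probe sets that stood higher at 3 h. The rule's signal floor, its 0.8 limit at 3 h and its order of the 3 h and 0 h arrays held for 433. Of these 433, the 84 were 19.4%. At 72 h, 237 (54.7%) were still at least 0.4 above 0 h and 40 (9.24%) were at least 0.4 below it. A further 70 (16.2%) were at least 0.4 above 0 h at 24 h and within 0.4 of it at 72 h, and the other two were the genes left out by name. The 3 h difference itself was similar, with a median of 1.06 in the 84, 1.18 in those still raised, 1.13 in those later lower and 1.02 in the 70. At 12 h, which the division did not use, 41.7% of the 84 were at least 0.4 above 0 h, against 92.8% of those still raised at 72 h, 84.3% of the 70 and 30% of those later lower. The median 12 h differences were 0.33, 0.88, 0.71 and 0.24 in that order, given as a description since all share the 0 h arrays.

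**Figure D5:**
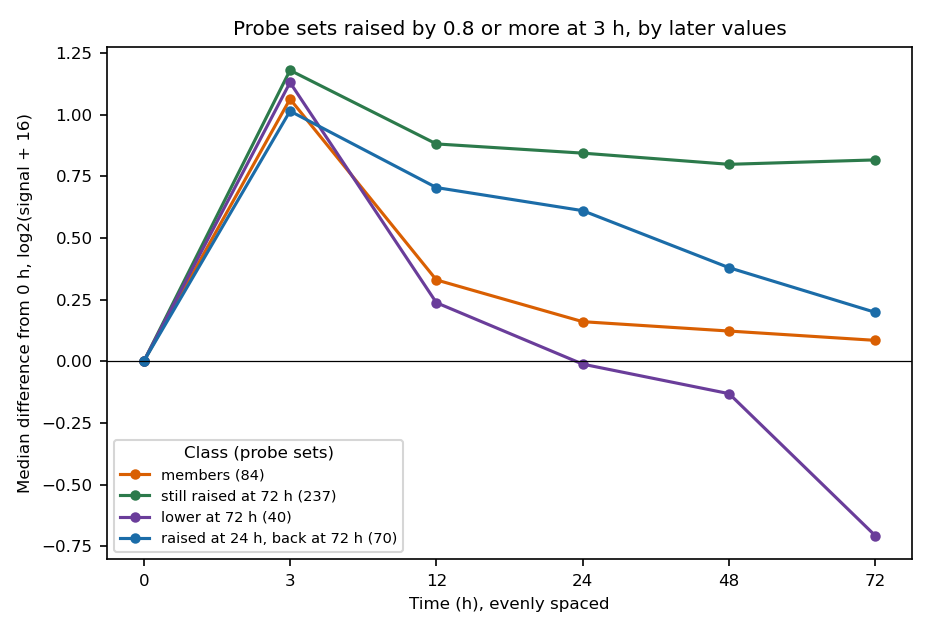
Median difference from 0 h in log2(signal + 16) (y axis) by time (x axis in h, evenly spaced) for the 433 probe sets, parted by their 24 h and 72 h values. All met the rule's signal floor, its 0.8 limit at 3 h and its order of the 3 h and 0 h arrays. The 84 have a median of 1.06 at 3 h and 0.33 at 12 h, where those still raised at 72 h have 0.88.

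The mirror image, a signal lower by at least 0.8 at 3 h that returned by the same limits, held for 118 probe sets with a median of -1.01 at 3 h. At 12 h, 76 of the 118 were still at least 0.4 below 0 h, as were 3142 of all 22746 probe sets. The mirror rule used the same 0 h arrays. In the list of sugar and carbon starvation genes all 4 measured genes fell at 3 h, where 6.66% of all probe sets tested did. The log2 differences were -6.70 for GAT1_2.1, whose mean signal was 3025 at 0 h and 16.9 at 3 h, -1.62 for IVD, -1.51 for MCCA and -0.75 for MCCB. Those at the edge of the rule differed little. Just inside the limit of 0.8 at 3 h were 254235_at and AT1G26900 at 0.80, AT5G54860 at 0.81 and 260833_at and 248270_at at 0.82. Just outside it were AT4G29700 and 257571_at at 0.80 and 257822_at, 258094_at and AT2G23680 at 0.79.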

How the data were processed

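Whole-root RNA was measured on 12 one-colour arrays, 2 at each of 6 times. The deposited values are linear intensity signals, which the authors made with MAS5, per the submitters' processing notes. Neither its version nor its scaling target is given in the sources used here, and no detection calls were used. Signals were used as deposited, as log2(signal + 16), so differences of dim probe sets are understated. Of 22746 probe sets that were not controls, the 14678 above the 40th percentile of the array (45.3 to 50.4) on at least 2 arrays were tested, among them all 84 that the rule chose.

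Group means were fitted over all 12 arrays with limma 3.58.1 in R 4.3.3 (eBayes with trend, 6 residual degrees of freedom), p-values adjusted by Benjamini-Hochberg over all 14678 and a threshold of 0.05. The fit was tested on simulated data. The number of arrays limits the precision.

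Gene symbols came from the platform annotation, which gave 13513 probe sets 1 gene, 503 several and 8730 none, and from RefSeq's gene table of TAIR10.1, where 13436 matched. The members and the gene lists were chosen with earlier results of these data known. Genes named are the 20 with the largest 3 h difference, the 10 brightest at 3 h, those in a list, up to 10 past each test in each direction, 5 on each side of the 0.8 limit and the 5 highest and lowest at 12 h and at 48 h. The other named genes, and probe sets with no single gene, were added after their values were seen. Promoter and protein sequences were not used here. The deviations of same-numbered arrays correlated at -0.257 to 0.218 over 15 pairs of times. Only 1 was above 0.1, that of 0 h and 3 h, and the lowest was that of 0 h and 48 h. With no common direction, the numbers were not taken as pairs.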

Additional observations from a re-analysis of the deposited data

How the results depend on the processing

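The alternatives were no offset, an offset of 64, quantile normalization, no filter, a mean signal of at least 100 as the filter, no trend, the compared groups alone, the replicate block and each array left out in turn, where the lone array of a group is assumed to vary like the other groups. No result reversed. Of 480 values of the 24 calls named by gene or probe set, 387 kept their call and 93 lost it. For 48 h against 12 h, 195 probe sets passed in all, 477 with the compared groups alone and 103 with no filter, and 24 to 246 with an array left out, lowest without 12 h replicate 1. Of the 84, 7 passed, 12 with the compared groups alone and 2 to 8 with an array left out. For 12 h against 0 h, 588 to 1364 passed in all with an array left out, against 1164, and of the 84, 17 passed, 10 with the compared groups alone and 6 to 21 with an array left out. For 48 h against 0 h, 549 passed in all, 364 with the compared groups alone and 206 to 689 with an array left out, and of the 84 0 to 2. For 3 h against 0 h, 1783 passed in all, 959 with the compared groups alone and 1215 to 1733 with an array left out. With the replicate number as a block, 168, 1097, 523 and 1682 passed in all in these 4 comparisons, and 5, 16 and 0 of the 84 in the first 3. Medians of the 84 ran from -0.25 to -0.18, 0.28 to 0.43 and 0.05 to 0.14 with an array left out, in the order of the first 3 comparisons. The rule gave 89 probe sets with no offset (69 of the 84 among them), 71 with an offset of 64 (49), 90 after quantile normalization (80), 135 with no floor on the signal and 41 with the return limits also at 12 h and 48 h. Dim signals limit the size of the differences, since 35 of the 84 were below 100 at 0 h.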
